A study of Mytilus galloprovincialis with 18 samples.

Results

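The genes described here are those of 3 probes, out of 1920 on a mussel cDNA array, that the study's probe tables describe as GADD45 gamma (Myt01-006C05), proliferating cell nuclear antigen or PCNA (Myt01-016A01) and a protein like INO80 complex subunit C of zebrafish (Myt01-003G12). They were chosen by these descriptions, and the tables list probes that the study had selected on the same gill samples. The ratios at 200 nM placed all 3 probes in those tables, and the ratio at 100 nM placed INO80 complex subunit C there as well. Those values are therefore given as descriptions with no test. Tests were made at 50 nM for the 3 probes and at 100 nM for GADD45 gamma and PCNA. These tests use the same control pool as the ratios that chose the probes, whereas a difference between doses does not contain it. No sequences of the spotted cDNAs were used here.

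GADD45 proteins are small stress-inducible proteins that, in mammals, halt the cell cycle after DNA damage and bind both PCNA and a kinase upstream of p38 and JNK. PCNA is the sliding clamp that encircles DNA and holds DNA polymerases during replication and excision repair. INO80 is an ATP-driven complex that moves nucleosomes and exchanges histones at promoters, stalled replication forks and DNA breaks, and subunit C is one of its conserved parts. Cadmium, copper and mercury are known to raise the reactive oxygen species that damage DNA, and cadmium also impairs DNA repair proteins.

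Adult Mediterranean mussels of mixed sex were kept for 48 h in sea water with cadmium, copper and mercury chlorides in equimolar mixture at a metal dose of 50, 100 or 200 nM, 5 mussels and 1 tank per dose. Gill RNA of 3 mussels per dose was hybridised singly against a single reference, the pooled gill RNA of 5 controls from another tank, with the dyes exchanged between array A (mussel in Cy3) and array B (mussel in Cy5). The data hold 18 arrays from 9 mussels, each with 2 spots per probe. Tank and dose cannot be told apart, and the pool counts as 1 control sample, so a test against it leaves out the spread between control mussels. In gill homogenate, fewer cells of a type and less RNA per cell cannot be told apart either. Each value below is the log2 test/reference ratio of a treated mussel over the pool, averaged over both spots and both arrays, so that 1 is a doubling and 0 is the level of the pool.

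Across the arrays the median spot intensity was 361 to 1334 for the treated mussel and 245 to 2787.5 for the pool, and at least 94.3% and 89.3% of spots lay over 2 SD above background. The 8 probes of ciliary axoneme proteins and tubulins that mark the gill epithelium were above background in the pool on at least 35 of 36 spots. Before the results, 2 irregularities bear on the values. The mussel 50 nM replicate 3 correlated negatively, across probes, with the other 8 mussels, at -0.14 on average for arrays A and -0.14 for arrays B, against 0.20 and 0.24 between pairs of the others. Its labels state the dyes, so the direction was kept, and values at 50 nM are also given with its sign turned or without it where a sign changed. For 100 nM replicate 1, the file of array A refers to a different image of the control channel than the files of the remaining arrays do.

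GADD45 gamma, the damage-inducible cell cycle inhibitor, was above the pool in every mussel at 200 nM, as 21.2% of the 1920 probes were, and lay on both sides of 0 at the lower doses. At 50 nM the log2 ratios were 0.72, -0.36 and 0.039 in replicates 1, 2 and 3. At 100 nM they were -0.021, 0.59 and 0.45. At 200 nM they were 1.71, 0.52 and 0.90. The ranges overlapped between all doses, because the lowest mussel at 200 nM was below the highest at 50 nM and at 100 nM. In each mussel's own list of 1920 probes, the 200 nM values stood at percentiles 99.2, 93.5 and 98.3, and 50 nM replicate 1 reached 98.1.

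With 3 mussels per dose, the log2 ratio of GADD45 gamma averaged 0.13 at 50 nM (SD 0.55), 0.34 at 100 nM (SD 0.32) and 1.04 at 200 nM (SD 0.61), the last being 2.06-fold of the pool. Leaving out 1 mussel moved the 100 nM mean to 0.21 (without replicate 2) or 0.52 (without replicate 1). Neither lower dose passed the test against the pool (limma, adjusted p = 0.992 at 50 nM and 0.635 at 100 nM). At these doses 0% of the 1920 probes passed that test, and 3.75% and 9.53% had an unadjusted p under 0.05. One-class SAM, a permutation method run as an alternative, called 0 probes at 50 nM and 23 at 100 nM, and neither GADD45 gamma nor PCNA was among them. The difference between 100 and 50 nM, in which the pool cancels, was 0.20 (SE 0.34, 95% interval -0.54 to 0.95, limma adjusted p = 0.998), and 4.43% of the 1920 probes had an unadjusted p under 0.05 in it. As a fold, the interval runs from 0.687 to 1.93, so the test does not show that the doses act alike. At 200 nM the mean ranked 19 from the top of the 1920 probes. The study also measured this transcript by qRT-PCR, on gill RNA pooled per dose, and reported levels above the control at each dose. As folds, those levels were larger at each dose than the array means given here. That measure rests on 1 pool per dose and was not examined here.

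The spots of GADD45 gamma were dim, and its ratio depended on the background correction. Its intensity was 2.29 to 8.29 times the local background for the treated mussel, with a median of 3.14, and 1.78 to 3.48 times for the pool, with a median of 2.87. All 36 spots were nevertheless over 2 SD above background in both channels, and none was saturated. On array B of 200 nM replicate 1, the array with the highest ratio of this probe, the mussel's spots averaged 1525.5 over a background of 184, and those of the pool averaged 865.5 over 343. On array A of 200 nM replicate 2, which had the lowest ratio of that dose, the mussel's spots averaged 1098 over 299, and those of the pool 768.5 over 233.5. With plain background subtraction the mean log2 ratio was 0.0955 at 50 nM, 0.24 at 100 nM and 0.71 at 200 nM. Without subtraction the 200 nM mean was 0.49, and in the authors' normalized values it was 0.67, with 1.10, 0.40 and 0.50 in the 3 mussels.

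Single spots of GADD45 gamma scattered widely. The 12 spots of a dose are repeats on 3 mussels, and the 200 nM values entered the choice of the probe. A ratio above 0 was found in 6 of 12 spots at 50 nM, in 8 of 12 at 100 nM and in 12 of 12 at 200 nM, where the spots ran from 0.22 to 2.12. The SD was 0.42 between the spots of an array, 0.28 between the arrays of a mussel and 0.51 between mussels of a dose. The last is for means over both arrays, so the 3 values are not on the same scale. At 200 nM the mean was 0.98 on arrays A and 1.10 on arrays B.

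**Figure D1:**
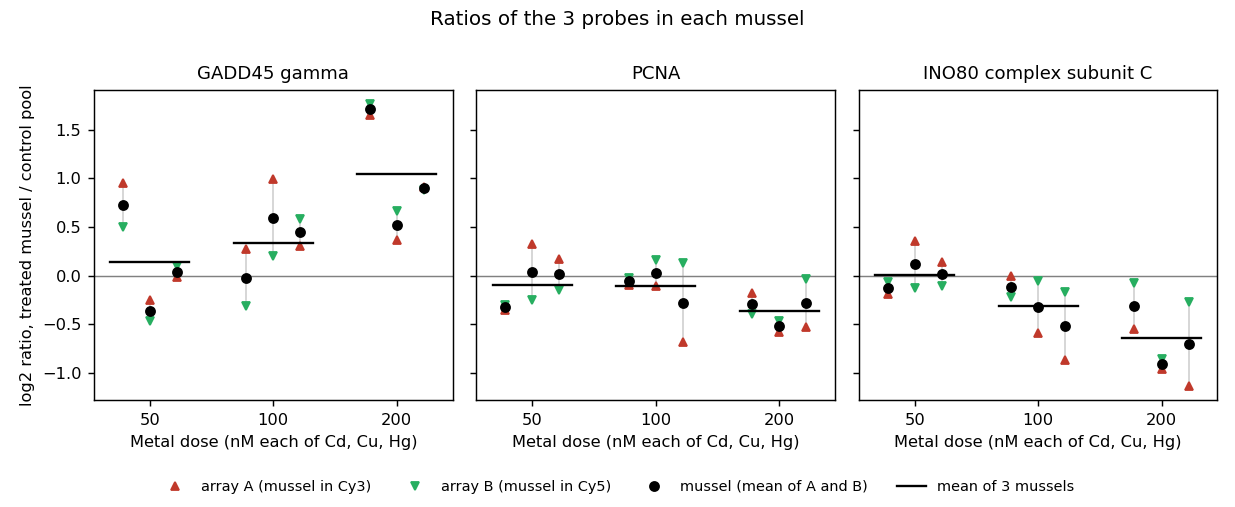
Log2 ratio of treated mussel over control pool (vertical axis) by metal dose in nM (horizontal axis) for GADD45 gamma, PCNA and INO80 complex subunit C. Black points are mussels, triangles their arrays A and B joined by a grey line, and bars the mean of 3 mussels, which reaches 1.04 for GADD45 gamma, -0.36 for PCNA and -0.64 for INO80 complex subunit C at 200 nM.

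PCNA, the replication clamp, was below the pool in every mussel at 200 nM, as 21.2% of the 1920 probes were, and on both sides of 0 at the lower doses. At 50 nM its log2 ratios were -0.33, 0.037 and 0.012 in replicates 1, 2 and 3. At 100 nM they were -0.057, 0.025 and -0.28. At 200 nM they were -0.29, -0.52 and -0.28. All 3 mussels at 200 nM lay below all 3 at 100 nM, by only 0.0024 between the nearest mussels, while 50 nM replicate 1 lay within the range of 200 nM. For comparison, 6.67% of the 1920 probes were lower at 200 than at 100 nM without overlap.

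The log2 ratio of PCNA averaged -0.0930 at 50 nM (SD 0.20, n = 3 mussels per dose), -0.10 at 100 nM (SD 0.16) and -0.36 at 200 nM (SD 0.14), the last being 0.777-fold of the pool. It did not pass the test at 50 nM (limma, adjusted p = 0.992) or at 100 nM (adjusted p = 0.813). The difference between 100 and 50 nM was -0.010 (SE 0.19, 95% interval -0.42 to 0.40, limma adjusted p = 0.998). As a fold, this interval runs from 0.747 to 1.32. At 200 nM the mean ranked 204 from the bottom of the 1920 probes, at percentile 10.6.

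PCNA was measured on bright spots, yet its 2 arrays often disagreed. Its intensity was 3.71 to 93.4 times background for the treated mussel and 5.66 to 66.6 times for the pool, and no spot was saturated. The SD was 0.15 between the spots of an array, 0.29 between the arrays of a mussel and 0.17 between mussels of a dose. The last is for means over both arrays, so it is not on the same scale as the SD between arrays. In 5 of 9 mussels arrays A and B had the same sign. At 100 nM the mean was -0.29 on arrays A and 0.0879 on arrays B, and 100 nM replicate 3 had -0.68 on array A and 0.13 on array B. Below 0 were 8 of 12 spots at 50 nM, 7 of 12 at 100 nM and 12 of 12 at 200 nM, where they ran from -0.59 to -0.0015. These spots are repeats on 3 mussels per dose, and the 200 nM values entered the choice of the probe. The 200 nM means were -0.43 on arrays A and -0.30 on arrays B.

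INO80 complex subunit C was below the pool in each mussel at 100 and 200 nM, as 16.6% and 21.2% of the 1920 probes were, and on both sides of 0 at 50 nM. At 50 nM its log2 ratios were -0.13, 0.11 and 0.019 in replicates 1, 2 and 3. At 100 nM they were -0.11, -0.32 and -0.52. At 200 nM they were -0.31, -0.91 and -0.70. All mussels at 200 nM lay below all mussels at 50 nM, which 7.86% of the 1920 probes also did. The ranges of 100 and 50 nM overlapped, since 100 nM replicate 1 was above 50 nM replicate 1, and so did those of 200 and 100 nM.

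The log2 ratio of INO80 complex subunit C averaged 0.0020 at 50 nM (SD 0.12, n = 3 mussels per dose), -0.32 at 100 nM (SD 0.20) and -0.64 at 200 nM (SD 0.30). These are 0.802-fold of the pool at 100 nM and 0.641-fold at 200 nM. Only the 50 nM ratio did not enter the choice of the probe, although it is taken over the same pool, and it did not pass (limma, SE 0.15, 95% interval -0.32 to 0.32, adjusted p = 0.998). Its sign is not settled, being -0.011 with 50 nM replicate 3 turned and -0.0068 without that mussel. Between doses, the mean differed by -0.32 for 100 minus 50 nM and by -0.32 again for 200 minus 100 nM, a step that was -0.19 without 200 nM replicate 2 and -0.49 without 200 nM replicate 1. From the bottom of the 1920 probes, the mean ranked 62 at 200 nM and 180 at 100 nM.

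As for PCNA, the ratio of INO80 complex subunit C differed between the dye orientations, and it was lower on arrays A at 100 and 200 nM. At 200 nM the mean was -0.88 on arrays A and -0.40 on arrays B, and at 100 nM -0.49 and -0.15. The widest gap was in 200 nM replicate 3, with -1.14 on array A and -0.27 on array B, while replicate 2 had -0.96 and -0.86. Below 0 were 7 of 12 spots at 50 nM, 10 of 12 at 100 nM and 11 of 12 at 200 nM. These too are repeats on 3 mussels per dose, and the 100 and 200 nM values entered the choice. The SD was 0.18 between the spots of an array, 0.34 between arrays and 0.22 between mussels of a dose. Spot intensity was 3.67 to 60.4 times background for the treated mussel and 3.95 to 69.0 times for the pool.

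**Figure D2:**
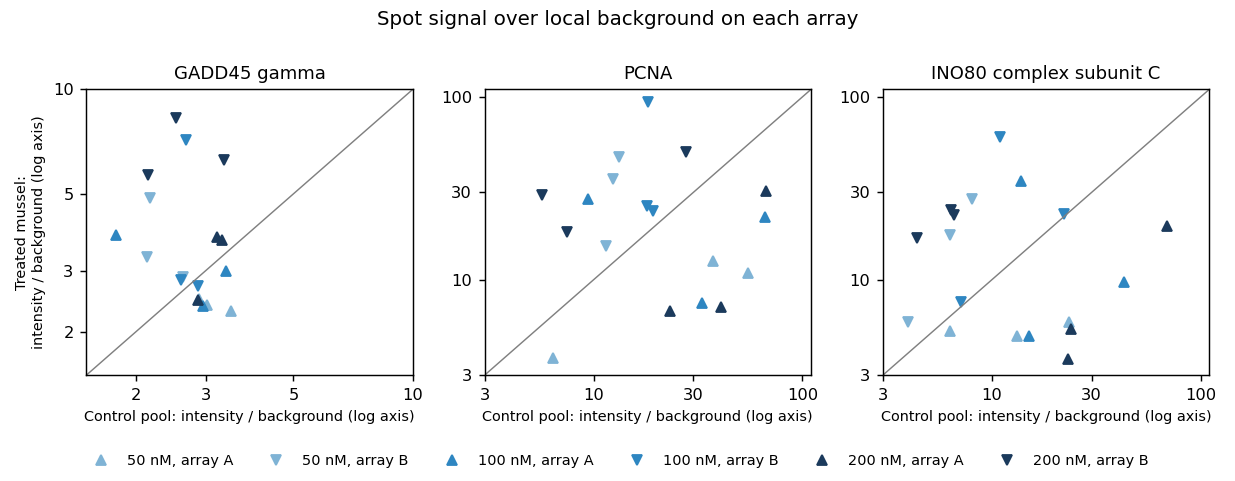
Spot intensity divided by local background for the treated mussel (vertical, log axis) and the control pool (horizontal, log axis) on each of 18 arrays, 1 panel per probe, with dose by colour and array A or B by triangle; the grey line marks equal values. GADD45 gamma reaches at most 8.29 times background, and PCNA and INO80 complex subunit C lie on opposite sides of the line on arrays A and B, apart from array A of 100 nM replicate 2.

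Before normalization the 2 dye orientations differed in signal. The mussel's PCNA spots stood further above background than those of the pool on 9 of 9 arrays B and on 1 of 9 arrays A, and the same counts held for INO80 complex subunit C. The exception among arrays A was 100 nM replicate 2 for both probes. Loess within each array takes out the dye difference shared by spots of like intensity, and the mean of arrays A and B cancels what is constant for a probe. Each mean ratio given above rests on both orientations equally.

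The means of GADD45 gamma increased with dose, and those of PCNA and INO80 complex subunit C decreased. Of all probes, 18.8% had means that increased at each step and 22.8% means that decreased at each step. The 200 nM values, and for INO80 complex subunit C the 100 nM values, entered the choice, so this order is no result about the 3 genes. The step that could be tested, 100 minus 50 nM for GADD45 gamma and PCNA, was within the spread between mussels.

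**Figure D3:**
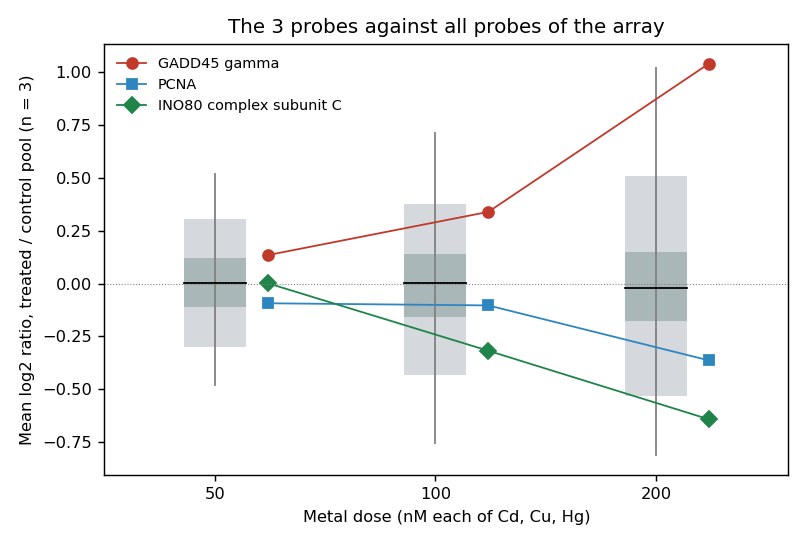
Mean log2 ratio of treated mussels over the pool (n = 3 per dose, vertical axis) by metal dose in nM (horizontal axis). Grey lines span percentiles 1 to 99 of all 1920 probes, light bars 5 to 95, dark bars 25 to 75 and black lines the median; coloured points are the 3 probes. GADD45 gamma passes percentile 99 (1.02) at 200 nM, INO80 complex subunit C lies under percentile 5 (-0.53) there, and PCNA stays above it at each dose.

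Across the mussels of all doses, PCNA and INO80 complex subunit C followed each other. Over the 9 mussels their ratios correlated with Pearson's r = 0.78 and Spearman's rho = 0.62, and r was 0.74 without 50 nM replicate 3. GADD45 gamma correlated negatively with both over all doses, with r = -0.55 for PCNA and -0.45 for INO80 complex subunit C. These are descriptions, with no test. The points share the pool, both arrays of a mussel and the 3 dose levels by which the probes were chosen. These r include the differences between doses, and the listing at 200 nM had set GADD45 gamma up and the others down. Within 200 nM, GADD45 gamma and INO80 complex subunit C instead ranked the 3 mussels in the same order. At 200 nM the mussel with the highest GADD45 gamma ratio, replicate 1, had the INO80 complex subunit C ratio nearest to 0, and replicate 2 had the lowest GADD45 gamma and the lowest PCNA and INO80 complex subunit C ratios.

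The probe most like GADD45 gamma over the 9 mussels was Myt01-018B10, described as without similarity, with r = 0.95. The next was a small heat shock protein of the mussel (Myt01-011G05), a chaperone that prevents aggregation, with r = 0.93 and mean log2 ratios of 0.71, 0.84 and 1.96 at 50, 100 and 200 nM. Myt01-011E06, Myt01-014H08 and Myt01-009G10 followed with r of 0.90 to 0.92. The most opposite probes were Myt01-017G01, Myt01-005D04 and Myt01-016H12, with r of -0.95 to -0.90.

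For PCNA the most similar probe was Myt01-008E09, with r = 0.94. A C1q domain protein, MgC1q89 (Myt01-015H10), of a family that in mussels recognises foreign surfaces, followed with r = 0.93 and means of -0.23, -0.31 and -0.66 at the 3 doses. A mussel probe described by its similarity to a neuron-specific protein of Aplysia (Myt01-017E02) had r = 0.92, and Myt01-016C12 had r = 0.91. Most opposite were Myt01-003A10, an RNA-binding protein (Myt01-018A06) and Myt01-018E08, with r of -0.94 to -0.91.

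For INO80 complex subunit C the first was Myt01-019B01, without similarity, with r = 0.95 and means of -0.043, -0.22 and -0.64. Myt01-004C07, Myt01-013E07, a homolog of the cell polarity protein lethal giant larvae (Myt01-015E05) and a collagen chain (Myt01-014E05) had r of 0.93 to 0.94. The opposite end held Myt01-013G10, Myt01-011A10 and a protein like the ribosomal 60S protein L5 (Myt01-005C08), with r of -0.93 to -0.90. These lists depended on the values used. Of the 5 probes most like each gene, 2 remained for GADD45 gamma, 1 for PCNA and 1 for INO80 complex subunit C in the authors' normalized values. Without 50 nM replicate 3 these counts were 3, 3 and 2, and with its sign turned 2, 3 and 2.

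Around these genes stand other proteins of chromatin, of growth control and of stress kinase signalling whose probes the study names. Most were listed in its tables because of their ratios in these gills, so neither their number nor their direction is independent evidence. The kinase probes MEKK5, MAPBPIP and M-Ras are named only in the legend of its summary scheme. None of the 8 chromatin and DNA-binding probes, 7 growth and cell cycle probes and 4 kinase signalling probes passed in limma at any dose over all probes. An unadjusted p under 0.05 was reached by 0, 2 and 4 of the chromatin probes at 50, 100 and 200 nM, and by 6 growth and 2 kinase probes at 200 nM, where 18.1% of the 1920 probes reached it. One-class SAM called 1 chromatin, 4 growth and 1 kinase probe at 200 nM, against 171 of all probes. At 200 nM 2.03% of the 1920 probes passed in limma, 0.885% higher and 1.15% lower. Without 50 nM replicate 3, 1 chromatin probe was lower, and 1 growth and 1 kinase probe were higher at 200 nM, where 97 of the 1920 probes then passed in place of 39. With its sign turned these counts were 1, 2 and 1, with 120 of all probes passing. In the authors' normalized values they were 0, 1 and 0, with 108 passing.

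The chromatin probes had no common direction, with medians of -0.052 at 50 nM, 0.035 at 100 nM and -0.13 at 200 nM, against 0.0037, 0.0042 and -0.022 over all probes. The histone variant H2A.Z, which the INO80 complex removes from nucleosomes in yeast, had -0.12, -0.059 and -0.32 at the 3 doses. Snf5p, a core subunit of another remodeller, SWI/SNF, had -0.051, -0.027 and -0.40 (SD 0.17 at 200 nM), with all 3 mussels at 200 nM below 0. The deacetylase complex protein Rxt3 had the lowest values of the list, -0.24, -0.87 and -0.94 (SD 0.22 at 200 nM, limma adjusted p = 0.104). Above 0 at 200 nM were nucleosome assembly protein 1-like 1, a histone chaperone, with 0.46, high mobility group protein D, a DNA-bending protein, with 0.34, and translin, which binds single-stranded nucleic acids, with 0.21. Histone H3 had -0.064, and the structure-specific recognition protein, a subunit of the histone chaperone FACT, had -0.19 at 200 nM and 0.21 at 100 nM.

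All 7 growth probes had means above 0 at 100 and 200 nM. In 6 the means increased at each step, against 18.8% of the 1920 probes. The study had listed all 7 as over-expressed at 200 nM, so their direction there was set by that listing. The listing also favoured an increasing order, which is therefore no result about these genes. The p8 nuclear protein was listed as over-expressed at 100 nM too. Over all probes, 50.7% at 100 nM and 46.0% at 200 nM had means above 0. The median of the growth probes was 0.10 at 50 nM, 0.24 at 100 nM and 0.48 at 200 nM. The highest was the p8 nuclear protein, a stress-inducible transcription cofactor, with 0.75, 1.43 and 1.33 in the mussels at 200 nM (mean 1.17, SD 0.37, limma adjusted p = 0.0685). Its 50 nM mussels had 1.29, -0.41 and -0.71, so the highest mussel at 50 nM overlapped those at 200 nM. Cyclin-dependent kinase 5 had 0.64, the myc homolog, a growth-promoting transcription factor, 0.51, and prohibitin, a mitochondrial scaffold protein, 0.48 at 200 nM. The growth-associated protein TCTP was on 2 probes, which share a gene name, with 0.47 and 0.42, and the nucleolar protein NOLC1 had 0.29.

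Of the kinase signalling probes, DUSP7, a phosphatase that switches off ERK, had 0.24, 0.12 and 0.64 at the 3 doses (SD 0.34 and limma adjusted p = 0.134 at 200 nM). MEKK5, a kinase that activates p38 and JNK under stress, had 0.062, 0.28 and 0.34 at the 3 doses. The scaffold MAPBPIP had -0.071, 0.054 and 0.26. The small GTPase M-Ras had 0.10, -0.27 and 0.077, with no single direction. The list's median was 0.083 at 50 nM, 0.087 at 100 nM and 0.30 at 200 nM.

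**Figure D4:**
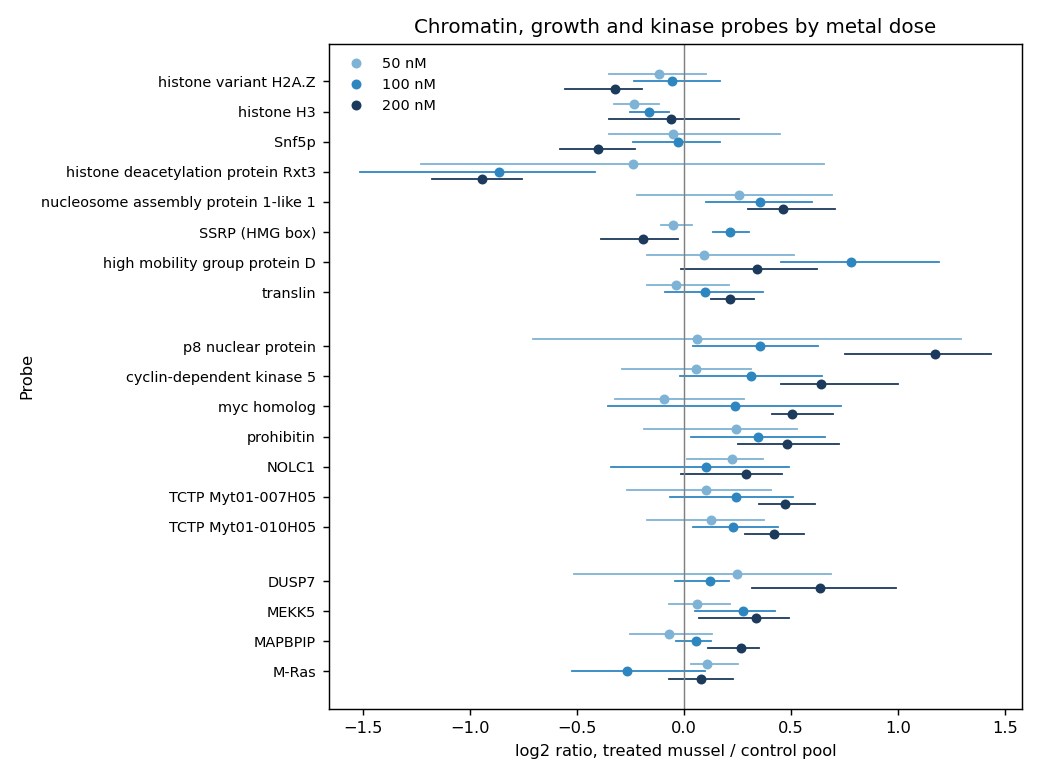
Log2 ratio of treated mussel over control pool (horizontal axis) for 8 chromatin probes (upper block), 7 growth probes (middle) and 4 kinase signalling probes (lower), with dose by colour. Points are means of 3 mussels and lines run from the lowest to the highest mussel; growth probes sit right of 0 at 200 nM, with means of 0.29 to 1.17, and chromatin probes lie on both sides, from -0.94 to 0.46.

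The study's category of replication, transcription and repair holds 23 probes, among them PCNA and INO80 complex subunit C. The study gave this category only to probes it had listed by their ratios in these gills. Counts, medians and directions of the category are therefore not independent evidence. Of the other 21, 0 passed in limma at 50 and 100 nM, where 0% of the 1920 probes passed. At 200 nM 2 passed as higher and 0 as lower, against 0.885% and 1.15% of the 1920 probes. At 200 nM these counts were 4 and 2 without 50 nM replicate 3, 5 and 2 with its sign turned, and 2 and 1 in the authors' normalized values. In these alternatives 97, 120 and 108 of the 1920 probes passed. The median of the 21 was -0.040 at 50 nM, 0.034 at 100 nM and 0.24 at 200 nM, against 0.0037, 0.0042 and -0.022 over all probes. At 200 nM 13 of these 21 listed probes had a mean above 0, against 46.0% of all probes. Means of the category reached from -0.94 for Rxt3 to 1.17 for the p8 nuclear protein there. The category shares these and other probes, such as H2A.Z, Snf5p, translin and prohibitin, with the chromatin and growth lists. PCNA and INO80 complex subunit C lay within that range, which probes listed as changed had set.

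Markers of other cells were measured beside these genes. The study had listed all these markers by their ratios in these gills, so their direction is not independent evidence. The 4 haemocyte markers were 2 antimicrobial mytimacins, a macrophage expressed protein and an aggregation factor. All 4 were below 0 in every mussel at 200 nM, as 21.2% of the 1920 probes were. The mean over this list was -0.20 to -0.018 per mussel at 50 nM, -0.49 to 0.11 at 100 nM and -0.61 to -0.44 at 200 nM. The 8 markers of the ciliated epithelium had means of -0.57 to 0.0919 at 50 nM, -0.57 to -0.39 at 100 nM and -0.68 to -0.34 at 200 nM. None of these probes passed, and one of the ciliary probes, of an axonemal dynein light chain, had a mean of 0.75 at 200 nM. Without 50 nM replicate 3, 2 of the 4 haemocyte probes passed as lower at 200 nM, and of the 8 ciliary probes 3 passed as lower and 1 as higher. The same counts were found with that mussel's sign turned and in the authors' normalized values. Of the 1920 probes, 97, 120 and 108 passed at 200 nM in these 3 alternatives, in place of 39. At 200 nM the lower ratios of PCNA and INO80 complex subunit C stood beside lower haemocyte and ciliary list means of like size. Both sides had been listed by these values, so that they came together there is no independent result. At 100 nM, where the ciliary means were -0.57 to -0.39, PCNA averaged -0.10 and INO80 complex subunit C -0.32. The part of these cells in the ratios was not tested. The egg marker, a zona pellucida domain protein, had -0.71 at 200 nM and passed as lower, as 1.15% of the 1920 probes did. Of the markers of muscle, foot and digestive gland (3, 2 and 4 probes) none passed, and their list means at 200 nM were -0.13 to 0.25, -0.47 to -0.064 and -0.069 to 0.26 per mussel.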

How the data were processed

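Gill RNA of 9 treated mussels was measured on 18 two-colour cDNA arrays of 3840 spots. The scanner files deposited by the authors give spot intensity and local background per channel. Their headers call the intensities background subtracted, but the values show them to be before subtraction. The authors also deposited log2 test/reference ratios, for which the methods name total intensity and LOWESS normalization; these were used as an alternative and correlated with those computed here at r = 0.727 to 0.945 per array. From the intensities, background was corrected by normexp (offset 50), ratios were normalized within arrays by loess (span 0.3, 4 iterations), and means were taken over both spots, then over both arrays. For the dim GADD45 gamma probe this correction gave larger mean ratios than plain subtraction. Spots of 1 file listed in another order were matched by probe.

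The 9 values per probe were fitted with limma 3.58.1 in R 4.3.3, 1 mean per dose, with Benjamini-Hochberg adjustment over 1920 probes and a threshold of 0.05. The code was tested on simulated data with known changes. SD is between 3 mussels. The precision is limited by 3 mussels and 1 tank per dose and by the single control pool.

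The genes and lists were chosen with earlier results of these data known. Named are the 3 probes, every probe of the chromatin, growth and kinase lists, and for each of the 3 the 5 probes with the highest and the 3 with the lowest Pearson correlation over 9 mussels; 1 of the probes most like PCNA is not reported here. Names come from 434 descriptions in the study's tables, read from page images, and for MEKK5, MAPBPIP and M-Ras from a figure legend. Alternatives changed background correction, normalization, the arrays and mussels used, the fit and the test (one-class SAM).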

Additional observations from a re-analysis of the deposited data

How the results depend on the processing

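The 18 ratios and dose differences of the 3 probes were recomputed under 23 alternatives. Of 405 recomputed values, 380 kept their direction and side of the threshold, or, where described without a test, moved by less than 1 SD. Part of that count was fixed in advance. Leaving out a mussel cannot move the mean of another dose. Changing only the fit or the test, or leaving out the dimmest probes, keeps every mean. No tested value passed under any alternative run, and the smallest adjusted p was 0.467, for GADD45 gamma at 100 nM on arrays A. The cause of the changes below was not tested, beyond the fewer arrays or mussels used.

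The sign changed for ratios and differences whose main values ran from -0.10 to 0.20, none of which passed the test. INO80 complex subunit C at 50 nM was -0.0058 without background subtraction, -0.0066 with plain subtraction, -0.0558 with print-tip loess, -0.0282 in the authors' values, -0.0982 on arrays B and -0.011 with 50 nM replicate 3 turned. PCNA at 50 nM was 0.0602 with median centring and 0.0467 on arrays A, and at 100 nM it was 0.0879 on arrays B. Its difference of 100 minus 50 nM was 0.0065 with print-tip loess and 0.32 on arrays B. Leaving out 1 mussel at a time gave -0.16 to 0.38 for GADD45 gamma at 50 nM (lowest without replicate 1 of that dose) and -0.0422 to 0.50 for its 100 minus 50 nM difference (lowest without 50 nM replicate 2). It gave -0.16 to 0.0245 for PCNA at 50 nM (highest without replicate 1), -0.13 to 0.0771 for its 100 minus 50 nM difference (above 0 without 50 nM replicate 2 or 3 or 100 nM replicate 3), and -0.0542 to 0.0669 for INO80 complex subunit C at 50 nM (below 0 without replicate 2 or 3).

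Arrays of 1 dye orientation moved the differences from 50 nM. On arrays A, 200 minus 50 nM was -0.47 for PCNA and -0.98 for INO80 complex subunit C, and 100 minus 50 nM was -0.59 for INO80 complex subunit C. On arrays B they were -0.0668, -0.30 and -0.0514. Leaving out 200 nM replicate 1 took GADD45 gamma at 200 nM to 0.71, and its differences from 50 and 100 nM to 0.57 and 0.37 in place of 0.91 and 0.70. PCNA at 100 nM was -0.016 without replicate 3 of that dose and -0.17 without replicate 2.

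Replicate numbers are only names here. Deviations of same-numbered mussels correlated at -0.10 to 0.15 (median 0.019, 9 pairs), against -0.25 to 0.15 for other pairs. With the replicate block, GADD45 gamma kept 0.34 at 100 nM (adjusted p = 0.631), no tested value of the 3 probes passed, and the count of probes passing at 200 nM was 16 in place of 39, and 2 in place of 0 at 100 nM.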
